A study of Jatropha curcas with 31 samples.

Results

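The 150 contigs described here held a steady level in Jatropha curcas seeds through 5 maturation stages and were lower in the dry seed. They were chosen from the deposited log2 values of 19838 contigs on an oligonucleotide microarray. For each contig the probe with the highest mean over 21 seed arrays was kept, and the 6 stage means were taken. The means of stages I to V had to lie within 2 log2 units of each other, which 15207 contigs met. The lowest of these 5 means minus the mean of stage VI, called the drop here, had to be at least 1.5. In all 277 contigs met both limits, and the 150 with the largest drop were taken, or 0.756% of the array. The seed values from stage I to stage VI therefore chose the contigs, and the profile over the stages is given as a description without a test.

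Leaf samples formed 2 groups, toxic (n = 5 arrays) and non-toxic (n = 5 arrays), and no stage was given for them. The seeds came from 1 selected plant in Ethiopia and were graded by fruit color into stage I (green-white, n = 3), stage II (green-half, n = 4), stage III (green-black, n = 3), stage IV (yellow, n = 3), stage V (brown, n = 4) and stage VI (dry, n = 4). No label says how the leaf plants relate to the seed plant, so organ and plant cannot be told apart, nor can leaf kind and plant. The codes in the titles repeat numbers within each kind, so the 5 arrays of a kind may come from 3 plants. The labels do not say so, and if they do, p-values over all 10 leaf arrays are too small. Slides 1 to 3 hold 1 leaf array for each number of a kind. The replicates of a stage are samples of the seeds of 1 plant, and p-values measure the spread between these samples, which may be partly technical. Titles of some arrays of stages V and VI hold a year or the word klein, and those of stages I to IV do not. No label explains these marks.

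Maturing seeds of oil plants fill with storage oil and protein, then lose water and enter a dry, resting state. In the desiccation phase, many transcripts used for growth and filling decline, while transcripts stored for germination are kept in the dry seed. Green seeds also carry chloroplasts, whose photosynthetic membranes are usually taken apart before the seed dries. A transcript that stays level through the green, yellow and brown fruit and then is low in the dry seed thus belongs, in time, to the last step of drying. An array level compares equal amounts of RNA, so fewer cells of a type and less RNA per cell cannot be told apart.

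The 31 arrays lay on 4 slides. Slides 1 to 3 held every stage and both leaf kinds, and slide 4 held 7, of which 4 were leaf arrays and 3 were seed arrays of stage II, V or VI. The deposited columns of seeds had medians of 5.62 to 5.68 over all probes and those of leaves 5.44 to 5.47, so leaves and seeds may have been scaled apart, and the counts and medians of the leaf comparison are given also from the scanner intensities, normalized together. Differences of single contigs are from the deposited table unless the scanner values are named. In the scanner values, seed arrays of slide 4 correlated less with arrays of their own stage (median r = 0.910 across 9 pairs) than arrays of slides 1 to 3 among themselves (0.973 across 18 pairs). In the deposited table the same medians were 0.976 and 0.966, and how the slides were joined there is not given in the sources used here. If slide differences were removed there, p-values from the deposited table are too small. As a check of the organ, both leaf marker contigs had a higher mean in leaf than in stages I to V, 1 of them on all arrays. The other had 7.12 in leaf, 6.81 in stages I to V and 7.34 at stage VI. Of 3 seed marker contigs, 2 were lower on all leaf arrays than on any seed array. The third ran the other way, with 9.88 in leaf, 9.80 in stages I to V and 9.34 at stage VI, so the check was mixed.

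Of the leaf arrays, the pair numbered 4 did not follow their labels. In the 60 contigs that best separated replicates 1 to 3 of the toxic from the non-toxic leaves, the array labeled toxic replicate 4 lay on the non-toxic side in 53 contigs, and the array labeled non-toxic replicate 4 lay on the toxic side in 42. Toxic replicate 5 lay on the toxic side in 51 of 60 and non-toxic replicate 5 on the non-toxic side in 39. In the scanner values the pair numbered 4 lay on the other side in 47 and 40 of 60. Toxic and non-toxic replicate 5 lay on their own side there in 45 and 32, the latter near an even split. All 4 arrays were on slide 4. Among the 150 contigs, 1 is of these 60, contig17978, so its values without the pair are no independent test. Values that compare the leaf kinds are given with and without the pair numbered 4. The labels were left as they are.

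The sources used here give sequences for 4 of the 150 contigs, as the primer pairs designed for RT-qPCR. They mark the stretch meant for RT-qPCR in 2 contigs with a known protein name and 2 without one. The levels given here come from the array probes, which the primers do not locate. All letters are in lower case because no position is singled out.
contig00484 (BLH1), first primer: tcatcaccatcaccatcagg
contig00484 (BLH1), second primer: caactgcatatgacagcatcg
contig00201 (WNK4), first primer: agccgcggttcaagactact
contig00201 (WNK4), second primer: gctgcacttgaaagtcgaaa
contig00686 (hypothetical protein), first primer: gatatccgggtggtggataa
contig00686 (hypothetical protein), second primer: acagcctcctgttggtgttc
contig16757 (no name), first primer: tgtctgcatagctcgtttgc
contig16757 (no name), second primer: aagcattgctgaaagggaga

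Over the 150 contigs, the median level of an array (log2 signal) was 9.74 to 9.96 at stage I, 9.40 to 9.84 at stage II, 9.44 to 9.61 at stage III, 9.37 to 9.54 at stage IV, 9.34 to 9.60 at stage V and 6.003 to 6.67 at stage VI. The stage VI arrays were apart from all others, while the arrays of stages III, IV and V overlapped. In leaves the medians were 8.64 to 8.97 on toxic arrays and 8.53 to 9.06 on non-toxic arrays, below the 17 arrays of stages I to V and above those of stage VI. The median of all contigs moved little, with 7.80 to 7.92 over the 31 arrays. In the scanner values the stage VI arrays had medians of 5.58 to 6.84, and the one at 6.84 was the array of slide 4.

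**Figure D1:**
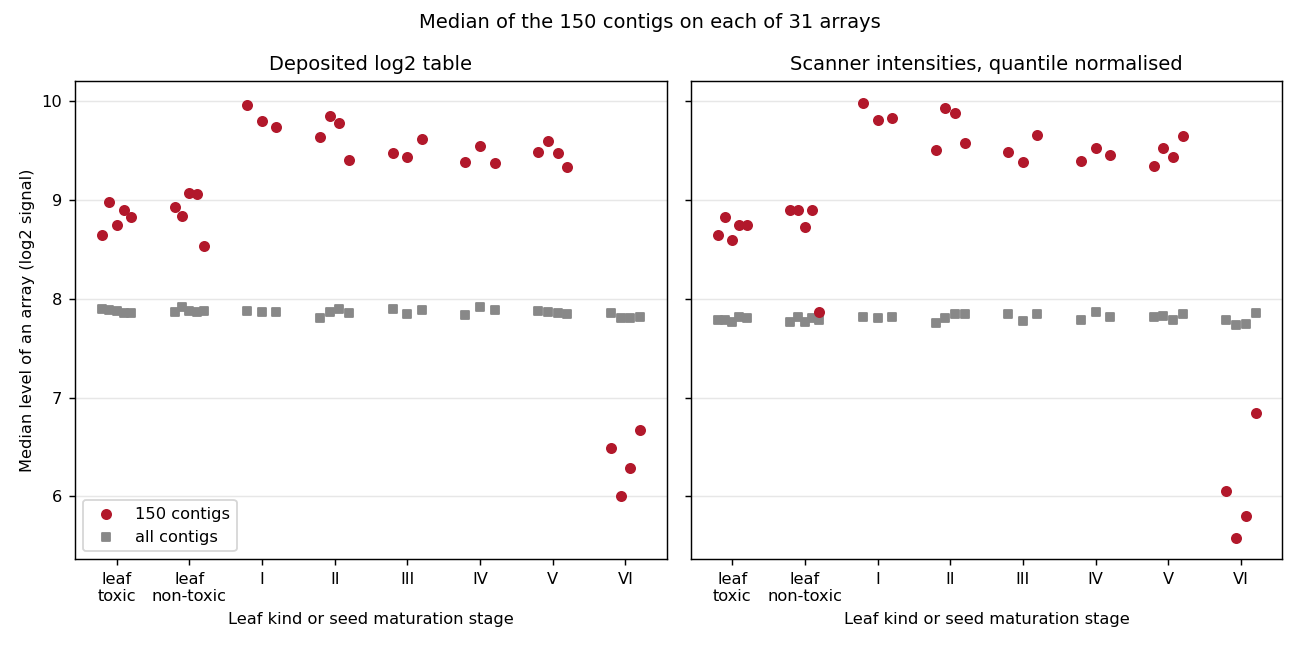
Median log2 level of the 150 contigs (circles) and of all contigs (squares) on each array, by leaf kind and seed stage, in the deposited table and in the scanner intensities. The circles of stage VI lie at 6.003 to 6.67 in the deposited table, below the leaf arrays at 8.53 to 9.06, and the squares stay between 7.80 and 7.92 there.

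The drop ran from 1.96 to 4.76 log2 units with a median of 2.32, and 22 contigs had a drop of at least 3. Between stage VI and stage V alone, the differences ran from -5.57 to -1.96 (median -2.87), against a median of 0.06 over all contigs. All 4 arrays of stage VI were lower than all 17 arrays of stages I to V in 150 of 150 contigs, where 10.4% of all contigs showed this, a count that the choice itself largely sets. In the scanner values 142 of the 150 showed it, and 6.4% of all contigs. With limma, 102 of the 150 were called lower at stage VI than V at an adjusted p under 1e-08 (3.97% of all contigs) and 150 under 0.05 (24.8% of all contigs), which follows from the choice and is no test of it. The spread of the means over stages I to V was 0.24 to 2.00, with a median of 1.39, and in 40 contigs it was under 1. The steady phase was thus seldom flat: 40 contigs peaked at stage I, 27 at II, 29 at III, 30 at IV and 24 at V. The lowest of the 5 stages was most often III (38 contigs), V (37) or IV (34), and less often II (26) or I (15). Of the 150, 81 were lower at V than at IV.

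**Figure D2:**
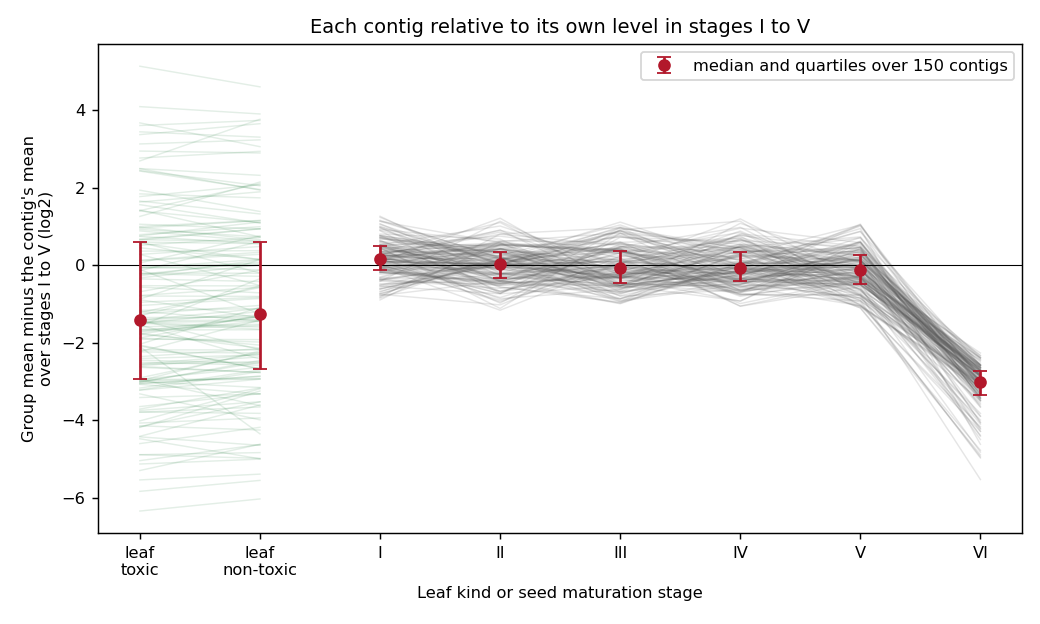
Mean of each leaf kind and seed stage minus the contig's own mean over stages I to V (log2), 1 line per contig, with the median and quartiles over the 150 contigs in red. The lines stay within about the chosen range up to stage V and drop at stage VI, while the leaf values spread to both sides.

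At the limit of the choice, the last contigs taken were contig19415 (drop 1.960), contig02140 (1.959) and contig02675 (1.958). The first left out were contig10683 (1.957), contig10815 (1.951) and contig09073 (1.946). The step between them is far below the replicate spread, whose median over the 150 contigs was 0.35 (SD) at stage VI.

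Detection followed the levels. Scanner flags put 144 to 149 of the 150 contigs well above background on all arrays of each of stages I to V. At stage VI 24 contigs were above background on some of the 4 arrays only and 21 on none. For these 21 only a bound was taken, as the lower of those from the deposited table and the scanner values: stage V was at least 3.01-fold to 22.1-fold higher than stage VI (median of the bounds 5.99). The second largest bound, 19.0-fold, was that of contig07129, whose GO terms name secondary metabolism. On all 10 leaf arrays 108 contigs were above background, and 14 were so on none.

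The 10 contigs with the largest drop began with contig21970, a contig of 102 bases with no name in the sources read. Its stage means were 11.28, 10.82, 10.94, 9.76 and 9.74 from I to V, and its stage VI arrays were at 4.75, 4.404, 5.14 and 5.64. Next came contig07129 (drop 4.25), contig06189 (4.24), contig05322 (4.18), contig11369 (4.17), contig01396 (4.06), contig11002 (3.99), contig00675 (3.903), contig00972 (3.79) and contig09709 (3.68). Of these 10, contig01396 and contig06189 carry GO terms of the photosynthetic membrane, and contig00675 and contig00972 are transcription factors. The flattest of them was contig11369, whose means from I to V were 10.92, 11.01, 11.12, 10.90 and 11.13, against 6.73 ± 0.40 (SD, n = 4) at stage VI.

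The question of the leaf comparison is whether transcripts that are low in the dry seed were also low in a green, growing organ. The leaf arrays took no part in the choice, but the seed side did, and it favors contigs that are bright in stages I to V (median 9.48, against 7.89 over all contigs). How far this sets the shares below was not tested. With limma, fitted on all probes with Benjamini-Hochberg adjustment and the study's threshold of 1e-08, 74 of the 150 contigs were lower in leaf than in the mean of stages I to V, or 49.3%, where 16.1% of all contigs were called lower. A further 24 contigs were higher in leaf (16%), where 19.8% of all contigs were called higher. At an adjusted p under 0.05 the counts were 91 lower and 43 higher, where 35.8% and 40.2% of all contigs were called. The median difference, leaf minus stages I to V, was -1.33 over the 150 and 0.08 over all contigs. In the scanner values 56 were called lower and 14 higher, where 9.08% and 9.37% of all contigs were called, and the median difference was -1.48. Of the contigs called in the deposited table, 56 lower and 13 higher calls were shared with the scanner values. Within each of slides 1 to 3, the median difference was -1.42, -1.32 and -1.13, and 99 to 103 contigs were lower in leaf. With slide as a block 70 were called lower and 18 higher, and on slides 1 to 3 alone 56 and 17.

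**Figure D3:**
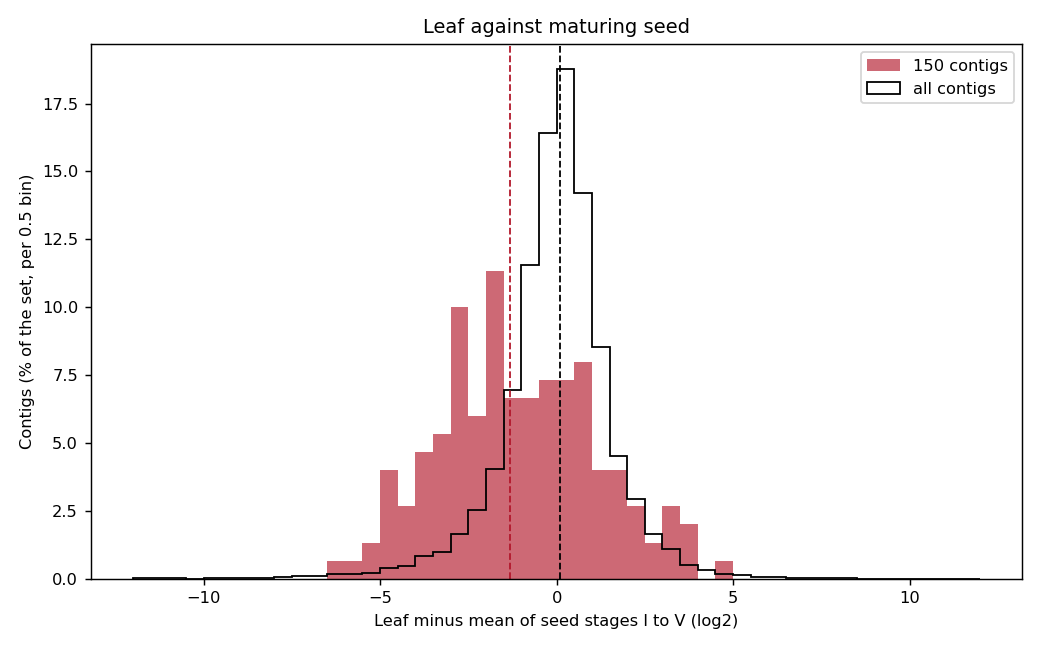
Distribution of the log2 difference, leaf minus the mean of seed stages I to V, for the 150 contigs (filled) and for all contigs (outline), as percent of each set per bin, with dashed lines at the medians of -1.33 and 0.08. The 150 contigs spread more widely, with a large part below -1 and a smaller part above 2.

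Set beside the seed levels, the mean of leaf lay above all of stages I to V in 37 contigs, within their range in 25, between stage VI and the lowest of them in 60, and at or below stage VI in 28. Over all contigs the shares were 25.9%, 21.3%, 2.99% and 49.8%, but the choice fixes a wide gap above stage VI that most contigs lack, so the last 2 classes cannot be compared. Leaf minus stage VI had a median of 1.70 over the 150 contigs (0.01 over all contigs), and 1.77 in the scanner values.

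Contigs with photosynthetic roles gave the widest range. These 4 contigs were assigned by GO terms, which the study derived from sequence and which were read here from its lists of terms enriched in clusters of these arrays, so a contig has a term here only through those clusters. In leaf 3 rose and 1 fell at the threshold, and the same counts were found in the scanner values. Of all contigs, 16.1% were called lower and 19.8% higher in leaf (9.08% and 9.37% in the scanner values). These shares stand beside each count by role below, and the counts rest on few contigs. Leaf arrays had contig01396, annotated with light harvesting in photosystem II, at 18.37 to 18.79 (median 18.62). The 17 arrays of stages I to V had it at 13.61 to 15.79 (median 14.73), and the stage VI arrays at 9.88, 8.70, 9.988 and 9.995. The 3 sets of arrays did not overlap, and leaf was 15.97-fold higher than stages I to V (log2 difference 3.998, SE 0.12, limma adjusted p = 5.79e-21), with a difference of 4.199 in the scanner values. For contig09461, a photosystem II component, the leaf arrays were at 13.82 to 15.10 (median 14.64), those of stages I to V at 8.66 to 11.20 (median 9.42) and those of stage VI at 6.02, 4.91, 5.63 and 6.37. Its means were lower at each later stage, with 10.88, 9.90, 9.68, 9.26 and 8.89 from I to V, and its leaf difference of 4.87 (SE 0.14, limma adjusted p = 3.1e-21) was the highest of the 150 (4.76 in the scanner values). In contig05755, of the thylakoid membrane, leaf exceeded stages I to V by 2.25 (SE 0.10).

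The fourth, contig06189, also assigned to the thylakoid, ran the other way. It was not well above background on any leaf array, with 3.61 to 4.62 (median 4.01), where stages I to V had 9.75 to 10.75 (median 10.23) and stage VI had 5.76, 5.41, 5.53 and 6.30. Stages I to V were at least 69.5-fold higher than leaf, and the fitted difference of -6.19 (limma adjusted p = 2.07e-25) was the lowest of the 150 (-7.73 in the scanner values). A GO term thus put 2 opposite leaf patterns under 1 heading.

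Transcription factors made up 7 of the contigs. In leaf 4 fell and 1 rose in the deposited table, and 1 and 1 in the scanner values, NAC047 and COL5. Of the 44 transcription factors in the part of the annotation table that was read, 14 were lower and 13 higher in leaf. COL5 (contig00675), a CONSTANS-like zinc finger protein of a family tied to light and day length in Arabidopsis, was at 13.20 to 13.59 on leaf arrays (median 13.32), against 8.98 to 10.57 on those of stages I to V (median 9.60). At stage VI it was at 5.45, 5.32, 4.72 and 5.70. Leaf was 12.7-fold higher than stages I to V (difference 3.67, SE 0.10, limma adjusted p = 1.84e-21), and the scanner difference was 3.64. NAC047 (contig00972), of a plant family of regulators with roles in stress and senescence, ran lower in leaf, at 8.78 to 10.57 (median 9.66), against 11.83 to 14.01 (median 13.27) in stages I to V. Its stage VI arrays were close together at 8.16, 8.13, 8.11 and 8.59. In leaf it fell by 3.48 relative to stages I to V (SE 0.16, limma adjusted p = 5.72e-17), without overlap, and the scanner difference was -3.65.

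Both contig00484 and contig00483 were matched to BLH1, a BEL1-like homeodomain protein, and their probes may report 1 gene or parts of it. For contig00484 the leaf arrays were at 12.71 to 14.27 (median 13.28), overlapping stages I to V at 12.49 to 13.69 (median 13.29), and stage VI was at 9.01, 8.72, 9.11 and 9.37. Its leaf difference of 0.38 (SE 0.13, limma adjusted p = 0.0159) did not pass 1e-08. The probe of contig00483 differed by -1.55 (SE 0.16, limma adjusted p = 1.19e-09), but was above background on 6 of 10 leaf arrays and on no array of stage VI, and its adjusted p was 0.0193 in the scanner values. In the scanner values its leaf arrays of slides 1 to 3 were at 6.40 to 8.00, and the 4 of slide 4 at 2.00 to 4.19. Stages I to V were there at 6.57 to 9.05 on slides 1 to 3, and stage V replicate 4, of slide 4, at 1.96. The 2 probes thus differ on leaf in the deposited table, but the low values of contig00483 in the scanner values lay mostly on slide 4. They have opposite directions on their contigs, and the strand each contig represents is not known. TEM1-like contig00012, related to a repressor of flowering in Arabidopsis, was close in leaf and stages I to V (difference -0.08, SE 0.10), while contig00011, with an AP2 domain, was at -2.48 in leaf and contig03758 at -1.14, calls that missed the threshold in the scanner values (limma adjusted p = 8.22e-08 and 6.83e-06). TEM1-like contig00012 was among the members that peaked at stage III, with a mean of 14.14 there and 12.54 at stage V.

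Signaling contigs numbered 5, of which 3 fell and none rose in leaf at the threshold, in both sources. Of the 23 protein kinases in the part of the annotation table that was read, 6 were lower and 5 higher in leaf. WNK4 (contig00201), a protein kinase of a family with an unusually placed catalytic lysine, was at 8.81 to 11.44 in leaf (median 10.46), against 12.24 to 13.70 (median 13.05) in stages I to V. The stage VI arrays had 9.76, 9.48, 9.58 and 9.77, inside the range of the leaf arrays. In leaf it fell by 2.76 (SE 0.21, limma adjusted p = 3.65e-12). MAPKKK17 (contig00138), at the head of a MAP kinase cascade, peaked at stages III and IV (12.40 and 12.62, against 10.71 at V) and in leaf fell by 2.69 relative to stages I to V (SE 0.23). For contig19415, with GO terms of auxin transport, leaf differed by -2.96 (SE 0.14). AHP1 (contig05180), a histidine-containing phosphotransfer protein of the cytokinin pathway, had 8.88 to 10.53 in leaf (median 9.35) and 7.43 to 9.26 in stages I to V (median 8.13), and the difference of 1.08 (limma adjusted p = 6.19e-06) did not pass 1e-08. Its GO terms name an oxidoreductase and go against the protein name. The receptor and MAP kinase GO contig11920 differed by -0.16 (SE 0.10).

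**Figure D4:**
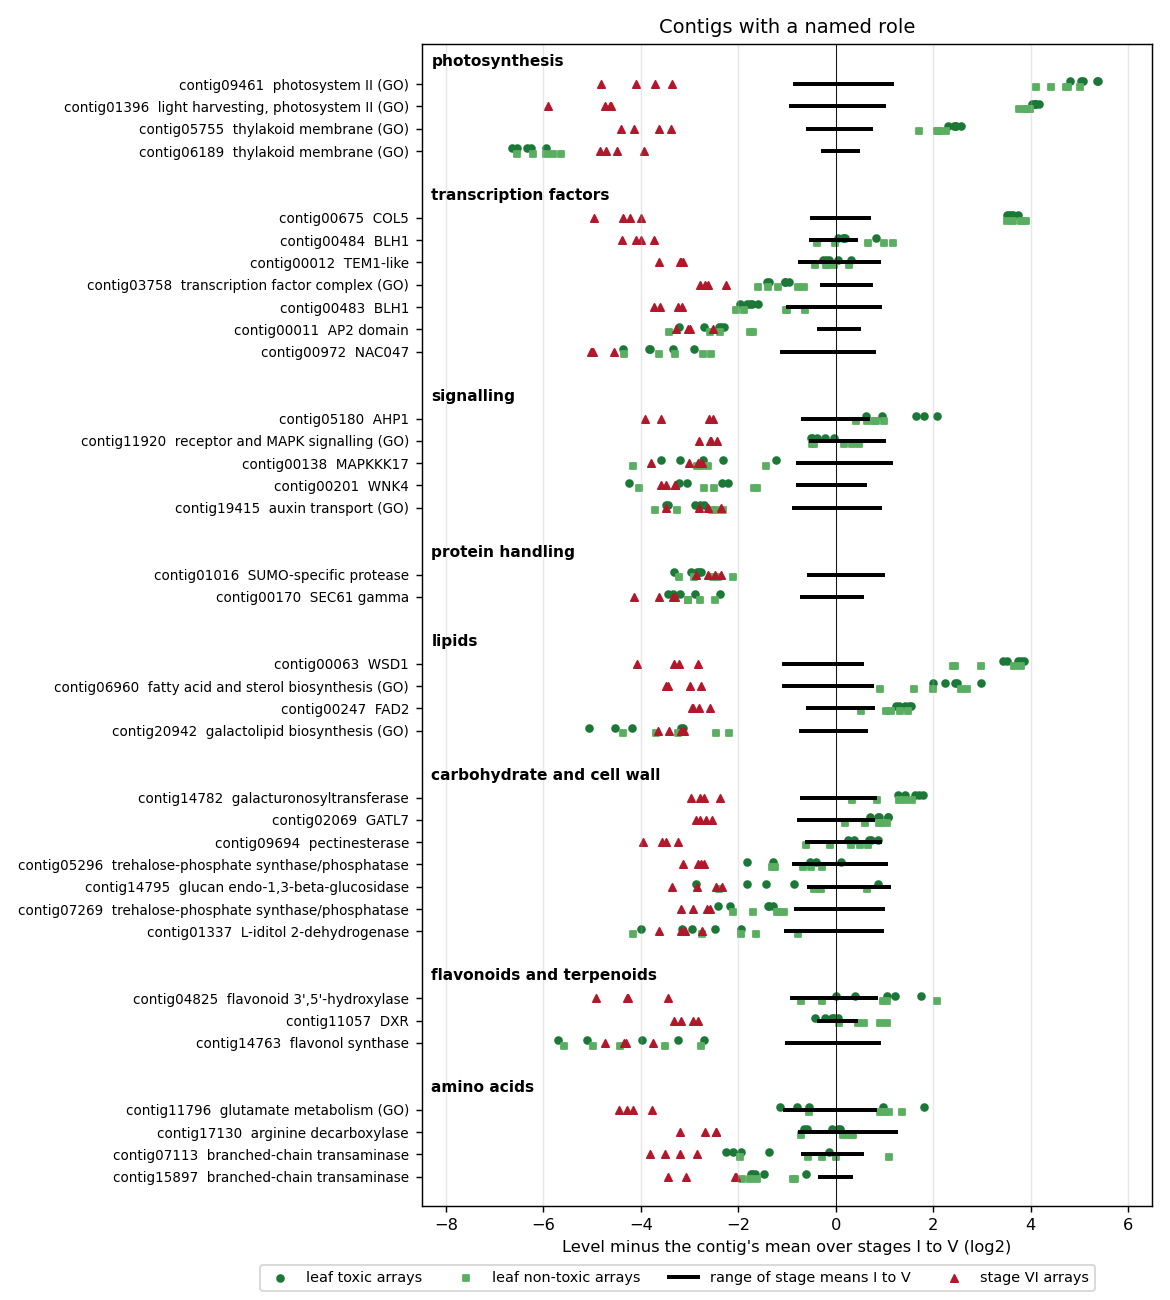
Level of each contig with a named role minus its own mean over stages I to V (log2), with leaf toxic arrays (circles), leaf non-toxic arrays (squares), the range of the 5 stage means (black bar) and stage VI arrays (triangles). Photosystem contigs and COL5 lie to the right in leaf at about 2 to 5, while most signaling and protein handling contigs lie to the left with stage VI.

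A pair of contigs served protein handling, and both fell in leaf, in both sources. Of the 13 protein folding and secretion genes in the part of the annotation table that was read, 1 was lower and 3 higher in leaf. The SEC61 gamma contig00170, described as a subunit of the channel that moves new proteins into the endoplasmic reticulum, had 5.58 to 6.66 on leaf arrays (median 6.01), against 8.22 to 9.98 (median 9.07) in stages I to V and 5.74, 5.41, 4.88 and 5.68 at stage VI. In leaf it fell by 2.96 (SE 0.12, limma adjusted p = 7.41e-18), and leaf overlapped stage VI. SUMO-specific protease contig01016, which removes the SUMO tag from proteins, fell by 2.79 in leaf (SE 0.11).

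Of 4 lipid contigs, 3 were higher and 1 lower in leaf in both sources. Of the 30 lipid genes in the part of the annotation table that was read, 8 were lower and 8 higher. The 4 contigs thus set no direction for lipid genes. FAD2 (contig00247), the desaturase of the endoplasmic reticulum that turns oleate into linoleate, had 14.60 to 15.62 on leaf arrays (median 15.38), against 13.47 to 14.89 (median 14.02) in stages I to V. At stage VI it was at 11.12, 11.50, 11.14 and 11.27, a 6.82-fold lower mean than at stage V. Leaf was 2.38-fold higher than stages I to V (difference 1.25, SE 0.08, limma adjusted p = 1.55e-13; 1.14 in the scanner values), with overlapping arrays. The WSD1-like contig00063, of the acyltransferases that make wax esters, was 10.3-fold higher in leaf (3.37, SE 0.17) and not above background on any stage VI array, where the stage V level was at least 7.72-fold higher. Also higher was contig06960, with GO terms of fatty acid and sterol synthesis (2.19, SE 0.15). A lower leaf level was found for contig20942, with GO terms of galactolipid synthesis and water deprivation, with 6.82 to 9.70 (median 8.43), against 11.07 to 12.69 (median 12.07) in stages I to V (difference -3.60, SE 0.21; -3.81 in the scanner values).

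Carbohydrate and cell wall enzymes were 7 contigs, 6 of them from the starch and sucrose pathway, of which 218 contigs were on the array. Of these 218, 38 were called lower and 49 higher in leaf in the deposited table. In leaf 2 of the 7 fell and 1 rose in the deposited table, and none passed the threshold in the scanner values, where the limma adjusted p of these 3 was 7.52e-07 for contig07269, 7.00e-08 for contig01337 and 7.61e-07 for contig14782. Trehalose-phosphate synthase or phosphatase, which makes and removes the sugar signal trehalose 6-phosphate, was the name of 2 contigs with the same seed pattern. Both peaked at stage III, contig05296 at 14.56 and contig07269 at 10.18, and had 13.09 and 8.60 at stage V and 10.67 and 6.38 at stage VI. In leaf contig07269 fell by 1.59 relative to stages I to V (SE 0.15, limma adjusted p = 2.61e-10), while contig05296 differed by -0.80 (limma adjusted p = 8.44e-05) and missed the threshold. The galacturonosyltransferases, which build pectin, were contig14782, higher in leaf by 1.33 (SE 0.13, limma adjusted p = 5.58e-10), and GATL7 (contig02069), with 0.83 (limma adjusted p = 9.15e-08). Pectinesterase contig09694 peaked at stage II with 10.34 and had 5.87 ± 0.30 (SD, n = 4) at stage VI. The glucan endo-1,3-beta-glucosidase contig14795 differed by -0.90 in leaf (SE 0.29). L-iditol 2-dehydrogenase contig01337, which oxidizes sorbitol, had its highest seed mean at stage IV, 13.001, with 11.29 at stage I, and fell by 2.58 in leaf (SE 0.25).

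Among secondary metabolism enzymes, flavonol synthase contig14763 had 2.79 to 5.78 on leaf arrays (median 4.28), 7.27 to 9.48 (median 8.61) on those of stages I to V and 4.19, 3.74, 4.14 and 4.72 at stage VI. In leaf it fell by 4.198 relative to stages I to V (SE 0.28, limma adjusted p = 3.15e-13). It was above background on 3 leaf arrays and on 1 of stage VI, so these low levels carry little precision. Flavonoid 3',5'-hydroxylase contig04825 did not pass, with a leaf difference of 0.75 (SE 0.25, limma adjusted p = 0.0116). DXR (contig11057), the reductoisomerase of the plastid route to terpenoids, had 9.99 to 11.47 on leaf arrays and 9.92 to 11.12 in stages I to V, against 7.49, 7.09, 7.24 and 7.58 at stage VI.

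No amino acid contig passed the threshold in leaf, but in simulated data only 4% of leaf differences of 1 log2 unit passed it. Branched-chain transaminases were 2 contigs, contig07113 and contig15897, with leaf differences of -0.96 (SE 0.25) and -1.42 (SE 0.17). Arginine decarboxylase contig17130, which starts polyamine synthesis, had a mean of 16.66 at stage I, 15.06 at stage V and 12.73 at stage VI, and leaf lay within the seed range with 14.70 to 15.78 (difference -0.08). The glutamate metabolism contig11796 peaked at stage II with 12.79. Further members with a description but no function were contig00014, contig00617, contig00686 and contig07734, and contig01957 and contig01592 matched RefSeq genes without a name. In all 30 contigs had a protein or enzyme description, 20 others only GO terms, and 100 neither.

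Contigs without a name in the sources read held several of the largest leaf differences. After contig06189, the lowest were contig21733 (-5.69, SE 0.15; -5.88 in the scanner values), contig21970 (-5.47, SE 0.17), contig11002 (-5.07, SE 0.14) and contig17846 (-4.96, SE 0.14). Of these, contig11002 and contig17846 were not above background on any leaf array, and stages I to V were at least 33.5-fold and 21.3-fold higher. In contig21733, of 141 bases, the seed mean was 13.79 at stage V and 8.23 ± 0.10 (SD, n = 4) at stage VI, the widest step between these stages in the set (47.4-fold). At the other end, contig08829 was higher in leaf by 3.51 (SE 0.12) and contig05090, with a hydrolase GO term, by 3.37 (SE 0.20). For contig08829 stage VI has only a bound, with stage V at least 7.27-fold higher. In contig05322, the fourth largest drop, leaf exceeded stages I to V by 2.41 (SE 0.10), and all 10 leaf arrays (14.15 to 14.59) were above all seed arrays.

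Toxic and non-toxic leaves were compared last, a contrast that the choice did not use. At the threshold of 1e-08 none of the 150 contigs and 0% of all contigs was called by limma with all 10 arrays. At an unadjusted p under 0.05 there were 38 of the 150, where 11% of all contigs passed, and in the scanner values 13, where 4.06% passed. At an adjusted p under 0.05 there were 2 contigs, 1 in each direction, where 0.267% of all contigs were higher and 0.0958% lower in toxic leaf, and in the scanner values there were 0 of the 150 (0.0151% of all contigs were higher). The median difference was -0.08. Without the leaf pair numbered 4, 1 contig passed 1e-08, contig17978, which has no name in the sources read (0.0807% of all contigs were called higher and 0.00504% lower). It is among the 60 contigs that set the pair apart, so this call follows in part from leaving the pair out. At 0.05 there were then 3 higher and 3 lower, where 1.28% and 0.565% of all contigs were called. On slides 1 to 3 there were 1 higher at 1e-08 (0.0605% of all contigs), and 3 higher and 8 lower at 0.05 (0.872% and 0.827%).

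On toxic arrays contig17978 was at 9.86, 10.06, 9.65, 6.72 and 9.56 for replicates 1 to 5, and on non-toxic arrays at 6.24, 6.44, 6.04, 9.02 and 6.83. The array labeled toxic replicate 4 lay among the non-toxic ones and the array labeled non-toxic replicate 4 near the toxic ones. Toxic minus non-toxic was 2.25 (SE 0.47, limma adjusted p = 0.0421) with all arrays, 3.39 (SE 0.17, limma adjusted p = 8.45e-13) without the pair numbered 4, and 3.62 (SE 0.16) on slides 1 to 3. Since contig17978 itself helped to set the pair apart, its values without the pair and on slides 1 to 3 are a description and no test. In seeds its stage means were 11.97, 11.56, 10.998, 10.82 and 10.98 from I to V and 7.16 at stage VI, and 4 of the 5 toxic arrays lay between stage VI and the earlier stages. A like order of arrays was seen in contig04478, with GO terms of cell junctions, at 12.18, 12.10, 12.08, 10.34 and 12.53 on toxic arrays and 10.56, 10.05, 11.05, 12.59 and 9.27 on non-toxic arrays. Its difference was 1.99 without the pair (SE 0.27, limma adjusted p = 9.39e-05). Likewise contig12557 was at 5.71, 6.17, 5.50, 4.25 and 6.17 on toxic arrays and 4.77, 4.21, 4.95, 5.74 and 4.77 on non-toxic arrays, and its difference was 1.21 without the pair (SE 0.20, limma adjusted p = 0.00128). These 2 contigs were chosen for display after their values were seen. The second contig called with all arrays was DXR (contig11057), lower in toxic leaf, with 10.39, 10.20, 9.99, 10.34 and 10.46 on toxic arrays and 10.88, 10.996, 11.47, 11.32 and 10.48 on non-toxic arrays (difference -0.75, SE 0.15, limma adjusted p = 0.0382). Its adjusted p was 0.405 in the scanner values and 0.0426 without the pair numbered 4. When each array was left out in turn, the adjusted p stayed under 0.05 in 6 of 31 fits for contig17978 and in 21 for contig11057.

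**Figure D5:**
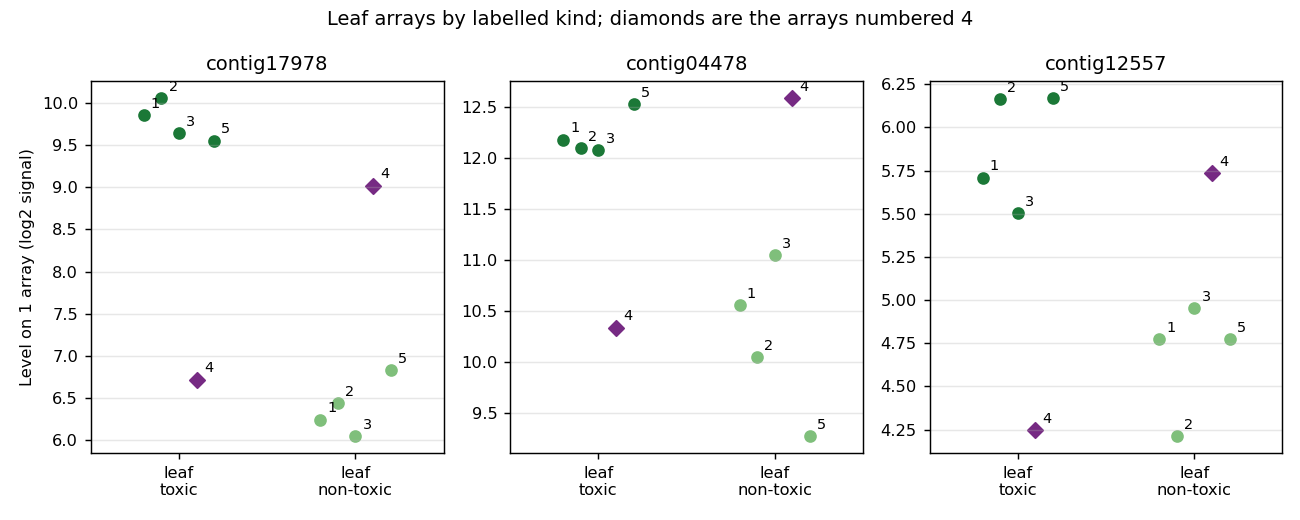
Log2 level of contig17978, contig04478 and contig12557 on each leaf array by labeled kind, with the replicate number beside each point and diamonds for the arrays numbered 4. In all 3 panels the toxic diamond lies with the non-toxic arrays and the non-toxic diamond with or near the toxic ones.

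The other probes of the same contigs did not set the drop, since only the probe with the highest seed mean was kept. They read the same RNA on the same arrays that chose the contigs. They are thus no replicates, and the counts below are a description and no test of the drop. Of the 150 contigs 115 had further probes, 339 in all. Of the 120 that ran in the same direction as the kept probe, 101 had a positive drop and 54 met both limits of the choice, with a median drop of 1.52. Of the 219 in the opposite direction, 104 had a positive drop and 14 met both limits (median -0.06). Among the 57353 probes of all other contigs, which were not matched for level or direction, 18.5% had a positive drop and 0.488% met both limits. Opposite probes were dimmer, with a median seed level of 4.48, against 7.54 for those of the same direction, and 39 of 219 and 88 of 120 were above background on all 17 arrays of stages I to V. Of those, 6 of 39 and 53 of 88 met both limits. Kept probes were sense by their position in 100 contigs and antisense in 50, and 61.3% of all contigs had a sense probe kept.

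Other genes of the same groups were counted between stages VI and V. In the starch and sucrose pathway, 71 of the 212 contigs outside the 150 had a lower level at stage VI relative to V by limma at an adjusted p under 0.05 and 49 a higher one, where 24.8% of all contigs were lower and 24.3% higher. Of transcription factors in the annotation table, which was read in part, 17 of 42 others were lower and 6 higher, with a median difference of -0.28. Of protein kinases 5 of 21 others were lower and 4 higher, of lipid genes 4 of 28 lower and 5 higher, and of protein folding and secretion genes 6 of 12 lower and 2 higher, with a median difference of -0.60, against 0.07 over all contigs outside the 150. Among enzyme contigs outside the 150 as a whole, 742 of 2451 were lower and 541 higher. Among all contigs read of the annotation table and outside the 150, 288 of 994 were lower and 231 higher, with a median difference of -0.0005. These are nearer backgrounds for the groups than all contigs. The differences between these groups were not tested. Ribosomal proteins (33 contigs), hormone signaling genes (14) and LEA and heat shock genes (11) had no member among the 150. Since 0.756% of all contigs were members, lists of these sizes may hold none by that share alone. Of these groups, 8, 6 and 2 contigs were lower at stage VI than V, and 6, 2 and 3 higher. These lists are short and were written with earlier results of these data known.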

How the data were processed

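Total RNA of seeds and leaves was labeled with Cy3 and hybridized to Agilent 8x60K arrays with 57842 probes designed from seed contigs. Per the labels and the study's methods, spots were quantified with Agilent Feature Extraction 10.5.1.1. The authors then corrected the background with spatial detrending, averaged replicate spots, took log2, imputed missing values from nearest neighbors and normalized by quantiles. The deposited table holds log2 values, which may have had further steps that are not stated, such as scaling leaves and seeds apart or joining slides. The main results use it because the choice of the contigs does. Of the deposited scanner files, the processed signal intensity and its flags were used here as an alternative: outlier spots were left out, replicate spots averaged, log2 taken, 848 values imputed from 10 neighbors and 31 arrays normalized by quantiles together. The number of arrays limits the precision.

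Groups were compared with limma 3.58.1 (R 4.3.3) in 1 model of 8 groups on all probes, without a slide term, as the methods state no batch term, with Benjamini-Hochberg adjustment over all probes. Contrasts weighted the 2 leaf kinds and the 5 stages equally. The fit was tested on simulated data for leaf minus stages I to V. At the study's threshold it called 4% of probes with a difference of 1 log2 unit and 62% with 2. With a difference of 4 or 8 units it called 100%. A contig that missed this threshold with a leaf difference near 1 is thus not shown to be alike in leaf and seed. Bounds take, on each array, the higher of the lowest signal well above background and the probe's own signal, in the deposited table and in the scanner values, and the lower bound is given. Where the probe's own signal is the higher one, the bound is the fold of the means.

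Contigs were named by the 10 largest drops, 3 on each side of the limit, members with a protein name or enzyme in the study's annotation tables, the 5 largest leaf differences each way and calls between leaf kinds. Names came from those tables and, for 19 members, RefSeq genes. Members and lists were chosen with earlier results of these data known. Alternatives were another source, background, scaling, slide block, probe choice, dim probe filter, threshold and each array left out. Promoter motifs were not analyzed here.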

Additional observations from a re-analysis of the deposited data

Results flagged for a closer look

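In 240 sets of 4 or 5 arrays of the contigs named in the text and of their median, 17 held a value far from the others of its group by the size of its gap over the range (Dixon's ratio), and chance marks about 1 in 20. On leaf toxic arrays, contig17978 was at 6.72 on replicate 4 (others 9.56 to 10.06), contig15897 at 4.83 on replicate 4 (3.71 to 3.96), contig00484 at 13.93 on replicate 5 (13.15 to 13.29) and contig21970 at 4.13 on replicate 1 (5.07 to 5.24). On leaf non-toxic arrays, contig17978 was at 9.02 on replicate 4 (others 6.04 to 6.83), contig17130 at 14.70 on replicate 4 (15.57 to 15.78), contig11002 at 3.85 on replicate 4 (4.52 to 4.76) and contig11796 at 11.44 on replicate 5 (12.91 to 13.35). Of these 8 leaf values, 5 came from the arrays numbered 4, which did not follow their labels in the leaf check.

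In seeds, stage II held contig00201 at 13.43 on replicate 2 (others 12.996 to 13.05) and contig01016 at 8.85 on replicate 3 (8.54 to 8.57). Stage V held contig14763 at 7.98 on replicate 2 (7.27 to 7.36), contig00011 at 8.56 on replicate 2 (7.77 to 7.88), contig11920 at 12.01 on replicate 2 (11.85 to 11.86) and contig00483 at 6.05 on replicate 4 (7.29 to 7.44). Stage VI held contig01396 at 8.70 on replicate 2 (9.88 to 9.995), contig00012 at 9.62 on replicate 2 (10.06 to 10.11) and contig00972 at 8.59 on replicate 4 (8.11 to 8.16). Each of these stage VI values remained below all arrays of stages I to V, which the choice itself largely sets.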

How the results depend on the processing

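The choice of the 150 contigs depended on the probe and the source. Both limits were met by 133 contigs in the scanner values (median drop 2.63, 125 of the 150 chosen again), by 97 after normexp background correction (1.86), by 61 as means of all probes (1.31) and by 89 with stages I to V within 1.5. Without each seed array in turn, 139 to 149 were chosen again, 143 to 150 met both limits and the median drop was 2.27 to 2.36.

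Of leaf minus stages I to V, 24 calls higher became 14 in the scanner values, with normexp, with the 75th percentile, on slides 1 to 3 of the scanner values and without the leaf pair numbered 4 there, 15 with the sense probe or with slide as a block in the scanner values and 43 at a threshold of 0.05. The median of -1.33 became -0.92 with normexp, -0.64 as means of all probes and -0.83 with the sense probe, where 8 called contigs changed sign. Each array left out gave 73 to 76 lower, 21 to 25 higher and a median of -1.38 to -1.25. The 75th percentile scaling moved the median of all contigs to -0.14, against 0.08. Leaf minus stage VI became 1.19 with normexp and lay at 1.58 to 1.81 without single arrays.

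Of toxic minus non-toxic, 0 calls higher became 1 on slides 1 to 3 and without the pair numbered 4, in both sources, and at 0.05 there was 1 in each direction. The call at 1e-08 was contig17978, which helped to set the pair apart. Single arrays left out gave 0 calls and a median of -0.14 to -0.04. Same-slide seed arrays deviated from their stage means with a mean r of -0.47 to 0.14 by slide in the deposited table and 0.03 to 0.76 in the scanner values. Leaf arrays had -0.22 to 0.06 and 0.30 to 0.56. In the scanner values every pair was over 0.1 among leaf arrays and on seed slide 4, but only 7, 5 and 13 of 15 on seed slides 1 to 3, so pairing was not shown for all arrays. With slide as a replicate block, 70 contigs were lower and 18 higher in leaf, and neither toxic call at 0.05 was kept. Block and pair alternatives of the scanner values and the pair left out were chosen after seeing the data. Of 498 alternatives of 47 named contigs none changed the sign of a call, 55 lost and 2 gained the threshold, and the cause was not tested. Probes near background limit the low levels.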
